A study of Komagataella pastoris with 4 samples.

Results

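The effect of deleting Gal83 was examined in the methylotrophic yeast Pichia pastoris (Komagataella pastoris in the labels) growing on methanol. The comparison took in 5420 of the 5427 rows of the deposited table, those averaging 20 counts or more across the 4 libraries, and 7 rows were left out. The Gal83-deletion library came from a strain labelled as a deletion mutant of Gal83 and resistant to ZeocinTM. It was set against the library of the parent GS115, labelled wild type with no antibiotic resistance. Both strains were histidine auxotrophs and were cultured for 14 h in YNBM, a minimal medium with methanol as carbon source. The series also held 1 library each of an Mxr1 deletion and a Gcn5 deletion, grown alike and also ZeocinTM-resistant histidine auxotrophs, whose values are given beside the comparison where they help to place it. No row was described as Mxr1, so that library is called Mxr1-labelled. The labels do not say how many clones or cultures each library came from.

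Gal83 belongs to the beta-subunits of Snf1, the AMP-activated protein kinase of yeast. In Saccharomyces cerevisiae the beta-subunits hold the catalytic and gamma subunits together and direct the kinase to its places in the cell, and Snf1 releases genes from glucose repression when a poorer carbon source is used. Methanol is oxidised by alcohol oxidase in the peroxisome to formaldehyde and hydrogen peroxide. Catalase removes the peroxide, dihydroxyacetone synthase joins formaldehyde to xylulose 5-phosphate, and enzymes of the pentose phosphate pathway rebuild the xylulose 5-phosphate. The remaining formaldehyde is oxidised to carbon dioxide through its glutathione adduct, which yields NADH.

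The Gal83-deletion library held 30582006 counts, the Mxr1-labelled library 34646983, the Gcn5-deletion library 30741258 and the wild-type library 48539082. The median row had 2083 counts in the Gal83-deletion library, against 2906 in the wild type. No row was at 0 in any library. Values below are scaled counts, that is deposited counts divided by a median-of-ratios factor of each library, and they can be compared between libraries for a row but not between rows, since the table gave no gene lengths. Ratios are log2 ratios of the Gal83-deletion over the wild-type library, and brackets hold the exact 95% counting interval (Clopper-Pearson). With 1 library a strain there was no replicate check and no test, so these intervals hold counting error and say nothing of how cultures vary. Rows are named by their deposited description together with the table's identifier.

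Calls of higher or lower needed a 2-fold difference or more and an interval that left out equality. By this rule 573 rows (10.6%) were higher and 595 (11.0%) lower in the Gal83-deletion library, 21.5% in all. Past 4-fold there were 73 higher (1.35%) and 107 lower (1.97%) rows, and past 10-fold 14 higher (0.258%) and 7 lower (0.129%). The median log2 ratio over all rows was -0.01, and 90% of rows lay between -1.53 and 1.37. The median width of the intervals was 0.167 log2 units, and 0 rows reached 2-fold with an interval that included equality. With total-count scaling, which moved the median of all rows to 0.14, the calls were 766 higher and 487 lower. These percentages are the background against which the counts within each gene list below are read.

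**Figure D1:**
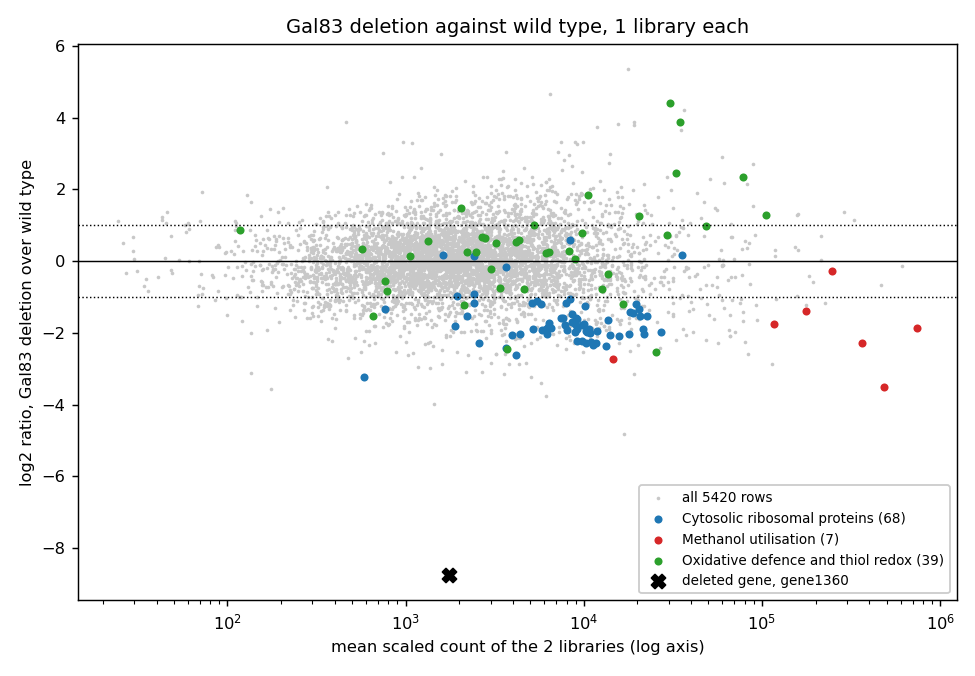
Each point is a row, with the mean scaled count of the Gal83-deletion and wild-type libraries on a log axis and the log2 ratio of the Gal83-deletion over the wild-type library on the vertical axis. Dotted lines mark 2-fold. Cytosolic ribosomal protein rows (median -1.81) and methanol rows (median -1.86) lay below most rows, and the deleted gene was at -8.75.

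Near the minimum of 20, the rows just inside were gene1064, with 32 counts in the Gal83-deletion and 32 in the wild-type library, and gene2866, with 35 and 23. Just outside were gene4011, with 27 counts in the Gal83-deletion and 9 in the wild-type library, and gene2773, with 12 and 43.

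The deleted gene was read first. The row described as a possible beta-subunit of the Snf1 kinase complex (gene1360) had 8 deposited counts in the Gal83-deletion library, against 5215 in the wild type. Scaled, it stood at 7.6 in the Gal83-deletion, 4741 in the Mxr1-labelled, 2989 in the Gcn5-deletion and 3485 in the wild-type library, a log2 ratio of -8.75 [-10.05 to -7.85]. Only the Gal83-deletion library lacked it, and it was the lowest of all 5420 ratios. The row that carries the description glucose repression protein GAL83 (gene161) stood at 5265 in the Gal83-deletion and 9101 in the wild-type library, a log2 ratio of -0.79 under the 2-fold rule. Which of both rows carries the deleted gene was read from these counts and not from the descriptions.

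The other rows of the Snf1 complex and glucose repression were all within 2-fold. The catalytic subunit (gene2489) had 3490.3 scaled counts in the Gal83-deletion library, against 3742 in the wild type, a log2 ratio of -0.10. The activating gamma subunit (gene2392) had 1853 and 2985 in the same order, a log2 ratio of -0.69. The co-repressor partners of Tup1 (gene456 and gene2216) were at log2 0.94 and -0.47, and gene456 passed 2-fold with total-count scaling (1.09). Of the 9 listed rows, 1 was lower, the deleted one, and 0 were higher (median log2 -0.46).

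All 4 rows next to the deleted gene in the table's order were higher in the Gal83-deletion library. No coordinates were available, and locus-tag numbers did not rise throughout in that order, so closeness on the chromosome was not checked. The row directly before it in the table, a P-loop nucleoside triphosphate hydrolase (gene1359), had 13482 scaled counts in the Gal83-deletion library. It had 1383, 1563 and 1355 in the Mxr1-labelled, Gcn5-deletion and wild-type libraries, a log2 ratio of 3.31. The high value was thus seen in the Gal83-deletion library alone. The row directly after it, mitochondrial distribution and morphology protein 34 (gene1361), part of the tether between endoplasmic reticulum and mitochondria in Saccharomyces cerevisiae, had 104640 in the Gal83-deletion and 14062 in the wild-type library, and the Mxr1-labelled library was also high at 67192. Vacuolar morphogenesis protein 7 (gene1362) was at log2 1.66 and the oligosaccharyltransferase subunit STT3 (gene1358) at 1.03, which was 0.98 with upper-quartile scaling. Of the rows further out within 10 places on each side, 8 were lower and 0 higher, where 11.0% of all rows were lower. These 8 include gene1350 and gene1351, which had the same counts in every library and so may be 1 signal. They also include ribosomal protein S15 (gene1352), of a family that was lower almost throughout. Whether the nearest rows were affected by the deletion cassette itself was not tested.

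**Figure D2:**
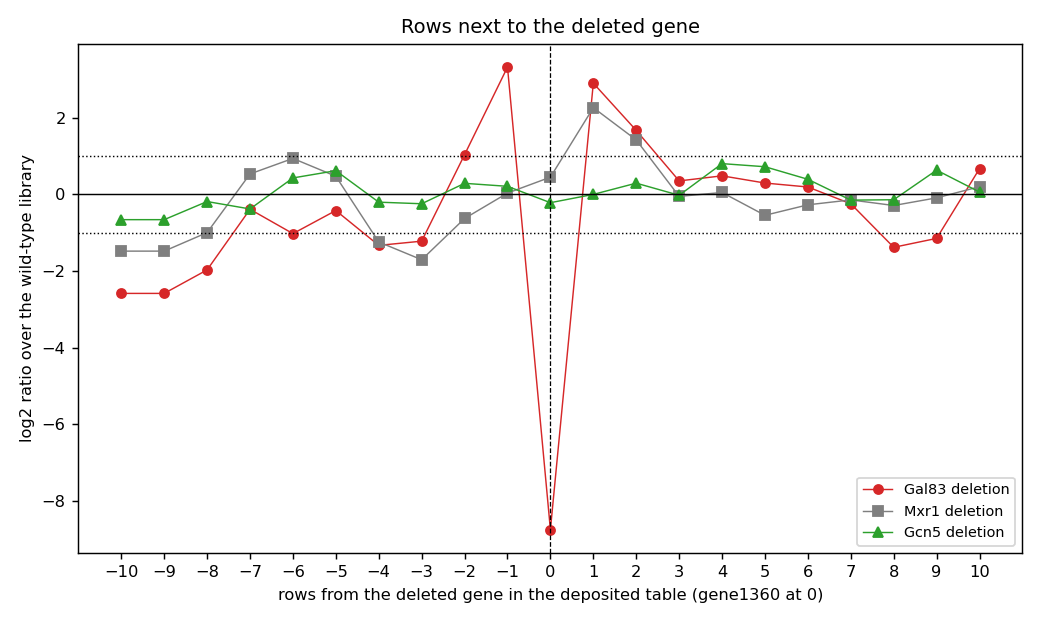
Log2 ratio over the wild-type library for the Gal83-deletion (circles), Mxr1-labelled (squares) and Gcn5-deletion (triangles) libraries, for the 10 rows on each side of the deleted gene in the table's order, with lines joining rows of a library. The Gal83-deletion library is at -8.75 for the deleted gene and between 1.03 and 3.31 for the nearest 4 rows, while the Mxr1-labelled library is also high, at 2.26 and 1.42, for the next 2 rows after it.

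Genes of methanol oxidation and assimilation were lower in the Gal83-deletion library, catalase excepted. Of 7 methanol rows, 6 were lower and 0 higher, and the median log2 ratio was -1.86. Together these rows took 3.09% of all counts in the Gal83-deletion library, against 10.4% in the wild type. The rows were known from earlier results on these data to be low, so the count is a description of them.

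Alcohol oxidase, the enzyme that starts the pathway, had the lowest ratios of the list. Its abundant row (gene4497) stood at 78877 scaled counts in the Gal83-deletion, 9128 in the Mxr1-labelled, 239947 in the Gcn5-deletion and 892877 in the wild-type library, 11.3-fold lower than the wild type [log2 -3.51 to -3.49]. All 3 deletion libraries were below the wild type, with the Gal83 deletion between the others. The minor row (gene5263) was lowest in the Gal83-deletion library itself, at 3789 in the Gal83-deletion, 4334 in the Mxr1-labelled, 7248 in the Gcn5-deletion and 25216 in the wild-type library. For dihydroxyacetone synthase, gene3440 had 320019 scaled counts in the Gal83-deletion and 1159455 in the wild-type library, and gene3442 had 122846 and 603178. Their log2 ratios were -1.86 and -2.30. The rows of each enzyme share near-identical descriptions, and reads could have been split between them.

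Dihydroxyacetone kinase (gene3432), which brings dihydroxyacetone into central metabolism, had 53398 scaled counts in the Gal83-deletion and 178737 in the wild-type library, a log2 ratio of -1.74. The only listed row of the branch that burns formaldehyde was also lower, and the list held no other step of that branch. S-(hydroxymethyl)glutathione dehydrogenase (gene3220) stood at 97733 in the Gal83-deletion, 197065 in the Mxr1-labelled, 194229 in the Gcn5-deletion and 254027 in the wild-type library, a log2 ratio of -1.38. It was the methanol row on which the Gal83-deletion library was furthest below both other deletion libraries. Peroxisomal catalase (gene1803) had 226044 in the Gal83-deletion library, against 271426 in the wild type, a log2 ratio of -0.26, while the Mxr1-labelled library had 53487.

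**Figure D3:**
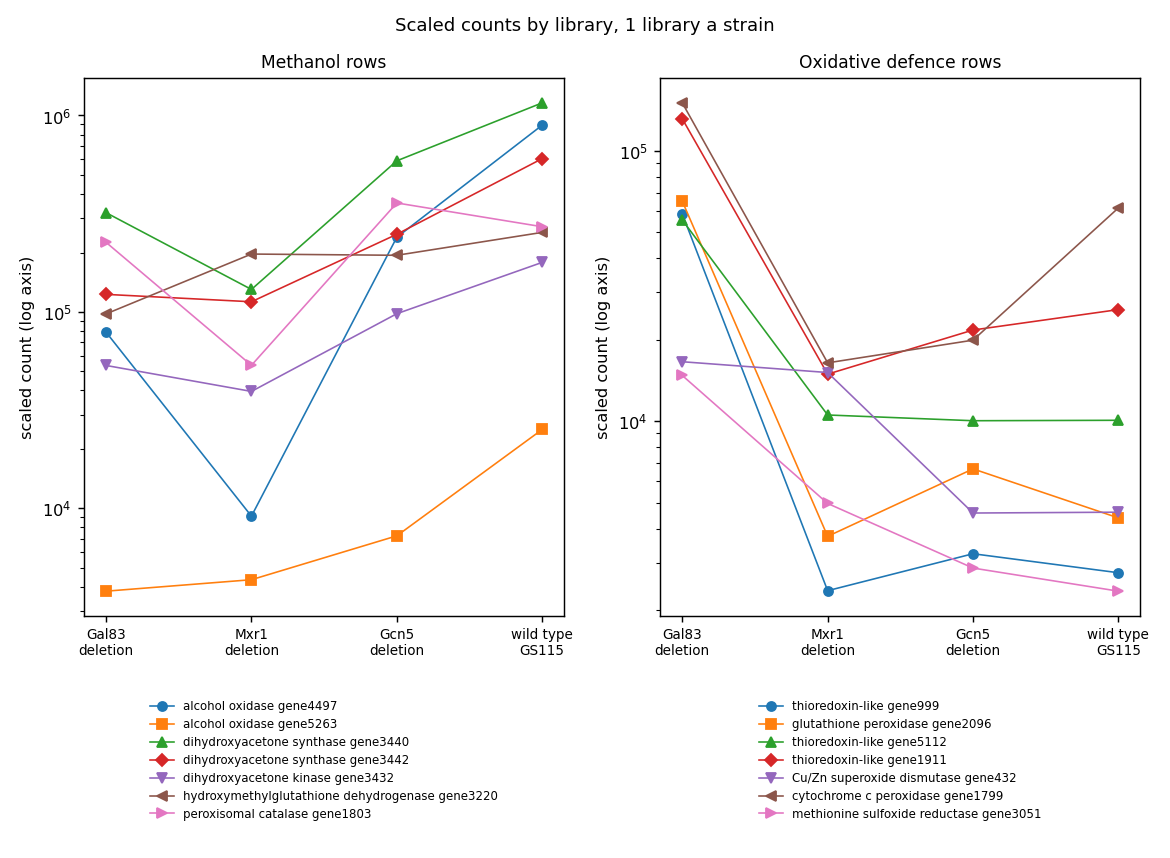
Scaled counts on a log axis in the Gal83-deletion, Mxr1-labelled, Gcn5-deletion and wild-type libraries, 1 point a library, for 7 methanol rows (left) and 7 oxidative defence rows (right), with lines joining the points of a row. All methanol rows but catalase are at least 2-fold lower in the Gal83-deletion library than in the wild type. The oxidative defence rows drawn were picked from those called higher, and they are highest in the Gal83-deletion library. The methionine sulfoxide reductase row (gene3051) is not in the oxidative defence list and comes from a family added after the values were seen. Of the 39 rows of that list 5 were lower, and none of these is drawn.

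Rows of the pentose phosphate pathway were found on both sides. Of 11, 4 (36.4%) were lower and 2 (18.2%) higher, against 11.0% and 10.6% of all rows (median log2 -0.92). Transaldolase rows gene2050 and gene2049 had 6614 and 1619 scaled counts in the Gal83-deletion library, against 33582 and 7196 in the wild type, log2 ratios of -2.34 and -2.15. The Mxr1-labelled library (5743 and 1264) and the Gcn5-deletion library (6893 and 1587) were about as low, so the wild type was the library apart. A transaldolase row beside them in the table (gene2048) went the other way, with 46545 in the Gal83-deletion and 24073 in the wild-type library, a log2 ratio of 0.95. Ribose 5-phosphate isomerase (gene5198) was at -1.64 and ribulose-phosphate epimerase (gene3867) at -1.13, which became -0.98 with total counts. The higher members were glucose 6-phosphate dehydrogenase (gene2725), which opens the oxidative branch and makes NADPH, and transketolase (gene968). Their log2 ratios were 1.06 and 1.20.

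Key enzymes of gluconeogenesis that were lower were phosphoenolpyruvate carboxykinase and fructose 1,6-bisphosphatase. Phosphoenolpyruvate carboxykinase (gene1609) stood at 27050 scaled counts in the Gal83-deletion, 310370 in the Mxr1-labelled, 486343 in the Gcn5-deletion and 199375 in the wild-type library. It was 7.37-fold lower than in the wild type and more than that below both other deletion libraries. Fructose 1,6-bisphosphatase (gene3397), which makes fructose 6-phosphate, had 46011 in the Gal83-deletion and 142305 in the wild-type library, and was also low in the Gcn5-deletion library at 43760. Of the class II aldolase rows, gene655 was at log2 -2.28 and gene386 at -1.49. Among enzymes of the glycolytic direction, phosphofructokinase subunit gamma (gene5082) was at -1.67, whereas pyruvate kinase (gene2208) was at 1.15 and a phosphoglycerate mutase row (gene3598) at 1.81. In all, 5 of 15 rows of the list (33.3%) were lower and 2 (13.3%) higher, against 11.0% and 10.6% of all rows (median log2 -0.60). Glyceraldehyde 3-phosphate dehydrogenase (gene2579), the most abundant row of the list in the Gal83-deletion library, was at 0.05.

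Cytosolic ribosomal proteins were lower almost throughout. Of 68 rows, 61 (89.7%) were lower and 0 higher, and the median log2 ratio was -1.81, where 11.0% of all rows were lower. They made up 1.14% of the counts in the Gal83-deletion library, against 3.07% in the wild type. The small and large subunits were alike: 28 of 32 rows of the 40S subunit (median -1.89) and 33 of 36 of the 60S subunit (median -1.76) were lower. A further 11 ribosomal protein rows that the list's patterns had missed, added after the values were seen, were all lower (median -1.82), among them the stalk proteins P0 (gene63) and P2 (gene4260), at -2.51 and -2.15. These 11 were not every such row. A 30S ribosomal protein S18 row (gene631) and a ribosomal protein S6 row (gene3065) were in neither group and were higher. Their descriptions do not say whether they are cytosolic. With total-count scaling 59 of the 68 rows were still lower.

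The lowest row of the list was an S28 protein of the small subunit (gene4046), with 111.7 scaled counts in the Gal83-deletion, 341.7 in the Mxr1-labelled, 948.4 in the Gcn5-deletion and 1059 in the wild-type library. S0 of the same subunit (gene1330) had 4374 in the Gal83-deletion and 22384 in the wild-type library, a log2 ratio of -2.36 [-2.40 to -2.31]. S22 (gene2531) was at -2.42, and a row of the large subunit (gene721) at -2.63. In both cases the Gal83-deletion library was the lowest of the 4. The 7 rows under 2-fold were led by L2 of the large subunit (gene805), with 10119 in the Gal83-deletion and 6676 in the wild-type library, and L10 (gene1712), with 37350.3 and 33492. An S9 row (gene4199), a small-subunit row (gene4037) and S27 (gene617) were at 0.17, 0.15 and -0.17. Some ribosomal proteins, S22, S27, S28 and S9 among them, had more than 1 row, between which the counting could have split reads.

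The other deletion libraries had smaller ratios for the same rows. The medians of the 68 rows over the wild type were -0.52 in the Mxr1-labelled and -0.21 in the Gcn5-deletion library, which share that wild-type library. A row stands apart where the Gal83-deletion library is 2-fold or more away from the other 3 libraries and these stay within 1.5-fold among themselves. Of the 68 rows, 20 stood apart as lower, where 1.64% of all rows did. This measure depended on scaling: with total counts 2 of the 68 stood apart, and 22 of all rows. The L22-like row (gene5380) is an example, with 1532 in the Gal83-deletion, 7262 in the Mxr1-labelled, 7193 in the Gcn5-deletion and 6413 in the wild-type library.

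**Figure D4:**
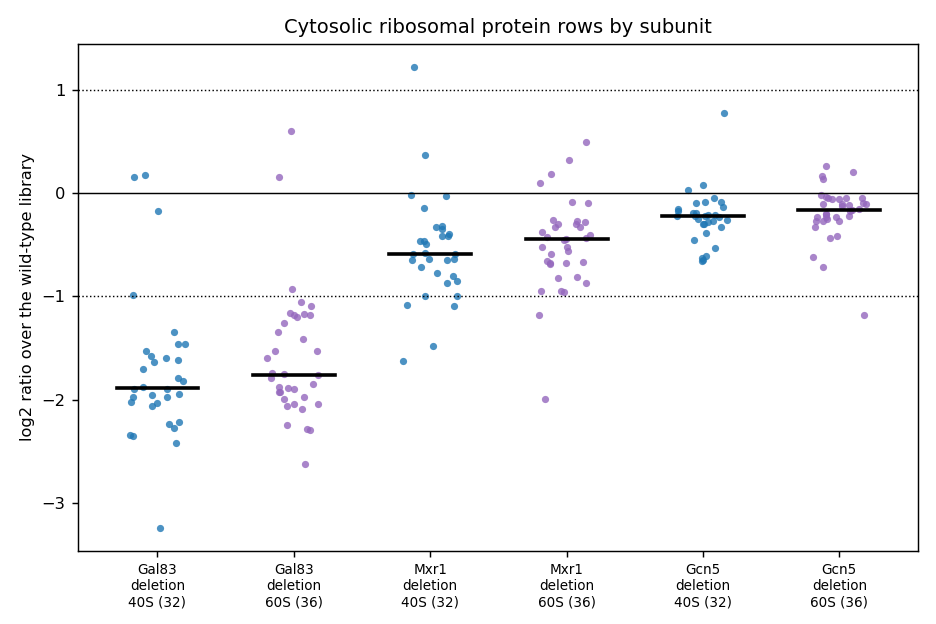
Log2 ratio over the wild-type library of each cytosolic ribosomal protein row in the Gal83-deletion, Mxr1-labelled and Gcn5-deletion libraries, split into 32 rows of the 40S and 36 of the 60S subunit, with bars at the medians and dotted lines at 2-fold. The medians of the Gal83-deletion library are -1.89 and -1.76, below those of the Mxr1-labelled (-0.59 and -0.45) and Gcn5-deletion (-0.23 and -0.16) libraries.

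Few rows in the rest of the translation machinery were called. Below 0 were 48 of 66 ribosome biogenesis, 21 of 30 translation factor, 11 of 17 tRNA synthetase and 22 of 50 mitochondrial ribosome rows. The ribosome biogenesis medians over the wild type were 0.20 in the Mxr1-labelled and 0.36 in the Gcn5-deletion library. Those of translation factors were 0.16 and 0.28. Of 66 ribosome biogenesis rows, 4 were lower and 2 higher (median -0.37), led by the U3 small nucleolar RNA-associated protein 10 (gene1702) at -1.55 and the box C/D particle protein Nop58 (gene5122) at -1.18. Of 30 translation factor rows, 0 were called (range -0.88 to 0.89, median -0.33). Of 17 tRNA synthetase rows, 1 was lower, the mitochondrial phenylalanyl enzyme (gene1422), at -1.10 and -0.95 with total counts. Of 50 mitochondrial ribosome rows, 0 were lower and 3 higher, including L36 (gene3073) at 1.80. The Hsp70 that binds nascent chains on the ribosome (SSB1, gene3557) had 16690.3 scaled counts in the Gal83-deletion and 65285 in the wild-type library, the lowest ratio of 45 chaperone rows at -1.97. Of these 45, 7 (15.6%) were lower and 2 (4.44%) higher, against 11.0% and 10.6% of all rows.

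Some genes of the respiratory chain and ATP synthase were lower. Of 66 rows, 17 (25.8%) were lower and 0 higher, the median log2 ratio was -0.55, and 63 were below 0. The count depended on scaling, with 11 lower rows under total counts and 20 under upper-quartile factors. By complex, 6 of 15 ATP synthase rows (median -0.89), 4 of 7 cytochrome c oxidase rows (median -1.01), 2 of 7 bc1 rows (median -0.77) and 4 of 33 complex I rows (median -0.47) were lower. The row with the F1 alpha and beta domain (gene1847), the catalytic part of ATP synthase, had 28490 scaled counts in the Gal83-deletion, 123929 in the Mxr1-labelled, 99088 in the Gcn5-deletion and 112301 in the wild-type library. The Gal83-deletion library thus stood apart from 3 libraries that lay close together. Subunit g of ATP synthase (gene3459) had the lowest ratio, -2.36, at 463.1 in the Gal83-deletion and 2380.1 in the wild-type library. The complex I subunit PDSW (gene447) was at -1.79.

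Other energy genes, named after their values were seen, went in both directions. The main ADP/ATP carrier of the inner membrane (gene5201), which passes ATP to the cytosol, had 26430 in the Gal83-deletion and 80762 in the wild-type library and stood apart as lower. The plasma membrane proton pump Pma1 (gene304) was at log2 -1.50. Alternative oxidase (gene3901), which takes electrons from ubiquinol past the proton-pumping complexes, was higher, with 132930 in the Gal83-deletion, 6124 in the Mxr1-labelled, 10025 in the Gcn5-deletion and 45779 in the wild-type library, a log2 ratio of 1.54. Of 12 tricarboxylic acid cycle rows 2 were lower, isocitrate dehydrogenase (gene2422) at -1.45 and aconitase (gene108) at -1.07, and aconitase was at -0.91 with total counts.

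Several enzymes against oxidants were among the highest rows of the whole comparison. Of 39 rows for oxidative defence and thiol redox, 9 (23.1%) were higher and 5 (12.8%) lower, with a median of 0.33, so the median row of the list differed little. Its summed counts were 2.54% of the Gal83-deletion library and 1.11% of the wild type. A thioredoxin-like row (gene999) had 58379.8 scaled counts in the Gal83-deletion, 2360 in the Mxr1-labelled, 3232 in the Gcn5-deletion and 2750 in the wild-type library, 21.2-fold higher than in the wild type [log2 4.36 to 4.45]. Glutathione peroxidase (gene2096), which reduces lipid and hydrogen peroxides with thiols, had 65046 in the Gal83-deletion, 3749 in the Mxr1-labelled, 6658 in the Gcn5-deletion and 4385 in the wild-type library. Both were high in the Gal83-deletion library alone.

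Of the other thioredoxin-like rows, gene5112 stood at 55430 in the Gal83-deletion library and between 10033 and 10535 in the other 3, and gene1911 had 131190 in the Gal83-deletion and 25846 in the wild-type library. Cu/Zn superoxide dismutase (gene432) was at log2 1.85, and the Mxr1-labelled library had a like value (1.72). Cytochrome c peroxidase (gene1799) was at 1.29, the bZIP factor gene4743 at 1.27, and a heme-dependent peroxidase (gene2937) at 1.49. On the lower side were a glutathione transferase (gene2233), with 7539 in the Gal83-deletion and 43630 in the wild-type library, and the endoplasmic reticulum heme-degrading enzyme (gene4217), at -2.46. The mitochondrial peroxiredoxin gene780 was at -1.20.

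Further families were added after the values were seen, and support nothing beyond their own values. The NAD(P)-binding Rossmann-fold rows among them are described by a fold alone and not by a role against oxidants. Of 4 methionine sulfoxide reductase rows, which repair oxidised methionine, 3 were higher: gene3051 at 2.65, gene5422 at 2.15 and gene4475 at 1.01, while gene4296 was at 0.83. Of 5 rows for FMN-containing NADPH oxidoreductases, 4 were higher, and these were the neighbours gene3935, gene3936, gene3937 and gene3938. The first of them had 35773 scaled counts in the Gal83-deletion, 441.3 in the Mxr1-labelled, 2935 in the Gcn5-deletion and 2561 in the wild-type library. As the 4 share a description, reads could have been split among them. Of 50 rows described only as NAD(P)-binding Rossmann-fold domains, 13 (26.0%) were higher and 5 lower. The highest were gene3859, with 35694 in the Gal83-deletion and 2413 in the wild-type library, and gene2389, with 22205 and 1651. With its neighbours gene3858, gene3860, gene3861 and gene3862, gene3859 formed a run of 5 rows in the table that were all higher, the last of them without a description.

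The remaining rows among the 15 highest described ones had mixed descriptions. A protein kinase-like row (gene3391) had the highest ratio of all, with 34687 scaled counts in the Gal83-deletion, 479.3 in the Mxr1-labelled, 881.1 in the Gcn5-deletion and 851 in the wild-type library, 40.8-fold above the wild type. The row beside it, an integral membrane peroxin (gene3390), was at 2.28. A papain-like cysteine protease row (gene1618) was 18.5-fold higher, with 69054 in the Gal83-deletion and 3727 in the wild-type library, and septicolysin (gene5378) was 14.2-fold higher. A P-type ATPase that exports copper from the cytosol (gene4601) stood apart at 64641 in the Gal83-deletion library, against 4072 to 5177 in the other 3. An NADPH-dependent alcohol dehydrogenase (gene693) and a Rho1 GTPase-activating protein (gene2934) were 8.24-fold and 8.21-fold higher. A pyridoxal phosphate-dependent transferase (gene4746) had 24790.1 in the Gal83-deletion and 3098 in the wild-type library.

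**Figure D5:**
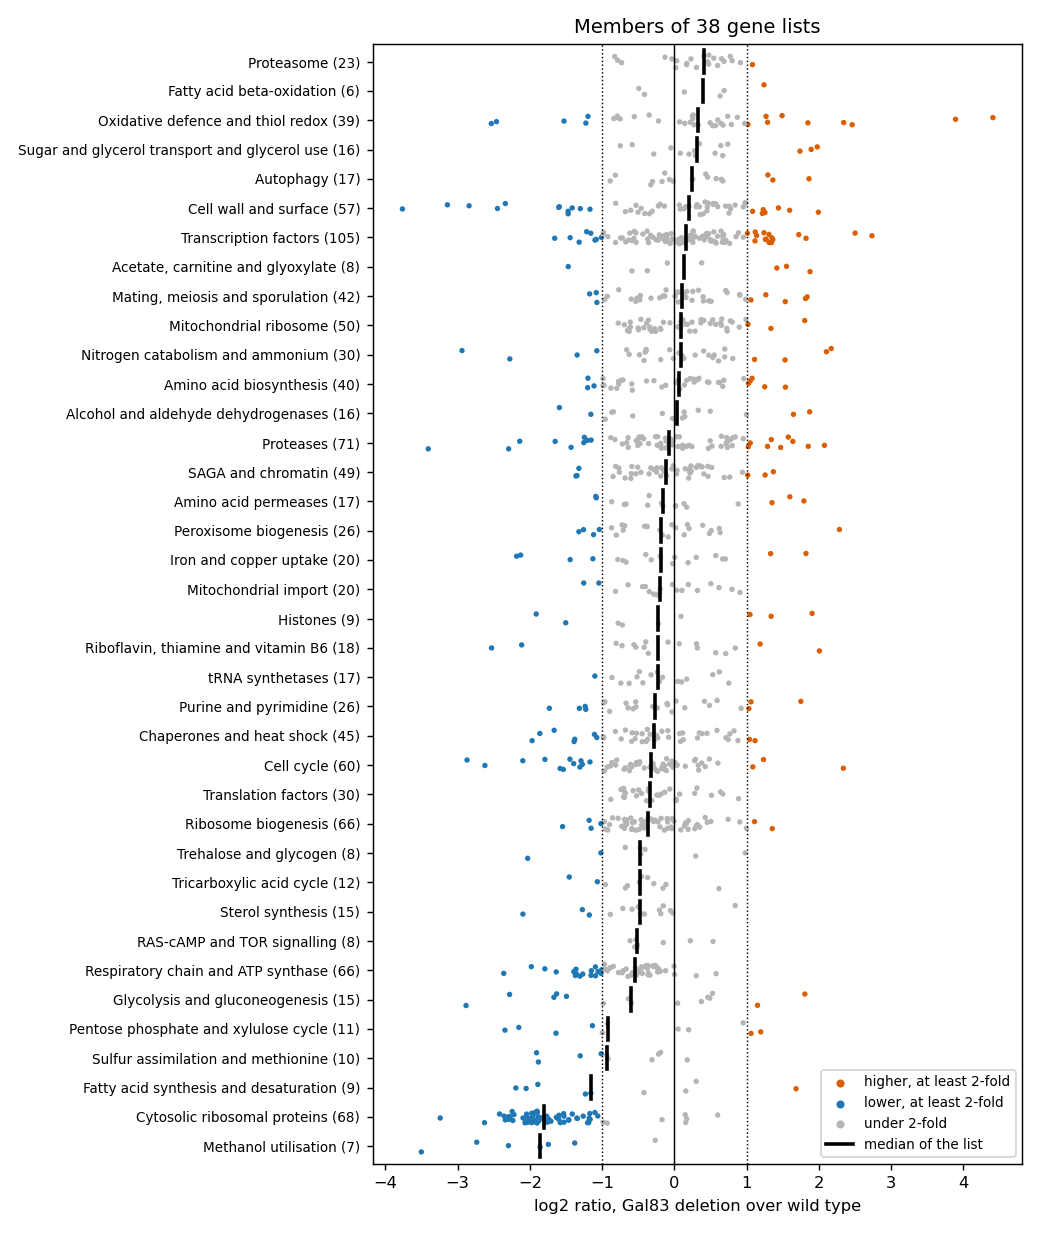
Log2 ratio of the Gal83-deletion over the wild-type library for every member of 38 gene lists, ordered by their medians (bars), with the number of members in brackets and dotted lines at 2-fold. The methanol and cytosolic ribosomal protein lists lie lowest, at -1.86 and -1.81, and the other medians lie between -1.15 and 0.41.

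The lowest described rows after the deleted gene were of several kinds. Actin patches distal protein 1 (gene484) had 1149 scaled counts in the Gal83-deletion, 5709 in the Mxr1-labelled, 38741 in the Gcn5-deletion and 32432 in the wild-type library, 28.2-fold lower than the wild type [log2 -4.90 to -4.74]. A low-affinity iron(II) transporter of the plasma membrane (gene1662) was 15.9-fold lower, with 170.0 in the Gal83-deletion and 2706 in the wild-type library, and the Mxr1-labelled library was as low at 164.9. A GLEYA adhesin row (gene1655), a zonadhesin row (gene4334), a subtilisin-like protease (gene2877), a family 45 glycoside hydrolase (gene4699) and a venom allergen-like row (gene4283) were between 8.57-fold and 13.6-fold lower. The Mxr1-labelled library was lower still for all of them but gene4699, which was at -3.10 in the Gal83-deletion and -2.82 in the Mxr1-labelled library. A serine/threonine kinase row (gene4086) was low in the Gal83-deletion library alone, with 307.5 in the Gal83-deletion, 1787 in the Mxr1-labelled, 2416 in the Gcn5-deletion and 2438 in the wild-type library.

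The cell wall list held 12 lower (21.1%) and 7 higher (12.3%) of 57 rows, against 11.0% and 10.6% of all rows. Its median was 0.20, with 33 rows above 0, and its summed counts were 1.93% of the Gal83-deletion and 1.37% of the wild-type library. In the Mxr1-labelled library 19 of the 57 were 2-fold or more below the wild type. Besides the adhesins, SCW11 (gene3006), a glucanase that in Saccharomyces cerevisiae acts in daughter cell separation, had 735.3 scaled counts in the Gal83-deletion and 5267 in the wild-type library. A glucanase-like wall protein (gene241) was at -2.45. On the higher side were a second zonadhesin row (gene2042) at 1.99 and cell surface glycoprotein 1 (gene1948) at 1.25.

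Several cyclins were among the lower rows. Of 60 cell cycle rows, 12 were lower and 3 higher, with a median of -0.32. A G1 cyclin (gene868) had 915.8 scaled counts in the Gal83-deletion, 3447 in the Mxr1-labelled, 8419.7 in the Gcn5-deletion and 6691 in the wild-type library. A Pcl1-like cyclin (gene2965) was at -2.62, the mitotic cyclin CYB1 (gene2954) at -2.10 and an exchange factor of mitotic exit (gene3526) at -1.79. CYB1 was low in the Gal83-deletion library alone, with 353.3 in the Gal83-deletion library and between 1223 and 1735 in the other 3. The 3 higher rows were a Pho85-binding cyclin (gene419) at 2.34, an anaphase-promoting complex subunit (gene2361) at 1.23 and the replication regulator SLD2 (gene4580) at 1.09. Tubulin chains, looked up after the values were seen, were lower in 3 of 4 rows: alpha (gene2859) had 1049 in the Gal83-deletion and 7659.6 in the wild-type library, and beta (gene4817) had 1153 and 8319.8. The gamma chain (gene5268), which nucleates microtubules, was at 0.91.

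Core enzymes of fatty acid synthesis were lower. Of 9 rows for fatty acid synthesis and desaturation, 5 (55.6%) were lower and 1 (11.1%) higher, against 11.0% and 10.6% of all rows (median -1.15). Fatty acid synthase beta (gene313) stood at 17429 scaled counts in the Gal83-deletion, 165173 in the Mxr1-labelled, 36849 in the Gcn5-deletion and 79687 in the wild-type library. The alpha subunit (gene1133) and acetyl-CoA carboxylase (gene1083), which makes malonyl-CoA, were at -2.05 and -1.89. In all 3 rows the Gal83-deletion library was the lowest of the 4 and the Mxr1-labelled library the highest. A delta(9) desaturase (gene5144) was the higher row, at 1.68. Of 15 sterol rows 3 were lower, among them farnesyl pyrophosphate synthase (gene1155) at -2.10 and an HMG-CoA reductase (gene1922) at -1.27, which stood apart.

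Of 16 rows for sugar and glycerol transport and glycerol use, 3 were higher and 0 lower (median 0.32), and the other 13 were not called. The higher rows were the glycerol uptake facilitator (gene4541), with 48957 scaled counts in the Gal83-deletion and 12432 in the wild-type library, glycerol kinase (gene4542), with 67724 and 18231, and the high-affinity glucose transporter HGT1 (gene6), with 12399 and 3717. The Mxr1-labelled library was below the wild type in all 3, at log2 -1.30, -2.29 and -1.55. For acetate use, 3 of 8 rows (37.5%) were higher and 1 (12.5%) lower, against 10.6% and 11.0% of all rows. Acetyl-CoA synthetase 2 (gene3907), a carnitine acetyl-CoA transferase (gene4293) and isocitrate lyase (gene1180), which opens the glyoxylate cycle, were at 1.88, 1.55 and 1.42, and the carnitine carrier Crc1 (gene2069) was at -1.47. The list's median was 0.14, and that of the Mxr1-labelled library over the wild type was 5.62. Of 8 trehalose and glycogen rows, 2 were lower, led by the self-glucosylating initiator of glycogen (gene4471) at -2.03.

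Of 30 nitrogen rows, 4 were higher and 4 lower (13.3% each, median 0.09), shares near those of all rows. Of the membrane proteins for ammonia export, gene2342 had 99622 scaled counts in the Gal83-deletion library, against 15526 to 22125 in the other 3, whereas gene765 and gene764 were at -2.94 and -2.28. Allantoinase rows gene16 and gene643, which open allantoin for use as nitrogen source, were at 2.10 and 1.53. Of 17 amino acid permease rows 3 were higher, led by a proline permease (gene2332) at 1.79, and 2 methionine permeases (gene2677 and gene5307) were lower at -1.09 and -1.08, both under 2-fold with total counts. Of 10 rows of sulfur assimilation 4 were lower (median -0.93). Sulfate adenylyltransferase (gene1086), which activates sulfate, had 3722 in the Gal83-deletion, 1820.0 in the Mxr1-labelled, 3057 in the Gcn5-deletion and 13957 in the wild-type library. The flavoprotein of sulfite reductase (gene5014) was at -1.88, and here too the wild type was the library apart. Of 40 amino acid biosynthesis rows, 5 were higher and 3 lower.

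In the iron and copper list 4 of 20 rows were lower and 2 higher. Ferric reductase rows gene5165 and gene3011 were at -2.18 and -2.13, and the iron-regulated activator AFT1 (gene1208) at -1.44. Copper transporter CTR2 (gene2195) was at 1.82. Of 18 rows for riboflavin, thiamine and vitamin B6, 2 were higher and 2 lower (11.1% each), close to the shares of all rows. A thiamine synthesis enzyme (gene3431) had 17372 scaled counts in the Gal83-deletion, 501.9 in the Mxr1-labelled, 2495 in the Gcn5-deletion and 4322 in the wild-type library. The thiamine-repressible regulator thi1 (gene4808) was at -2.53, although the other deletion libraries were above the wild type.

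Of 105 transcription factor rows, 16 (15.2%) were higher and 8 (7.62%) lower (median 0.16). A bZIP factor of the ATF/CREB kind (gene720) had 24218 scaled counts in the Gal83-deletion and 3639 in the wild-type library, and a homeodomain repressor (gene3713) had 5984 and 1057. The general control activator GCN4 (gene1181), which in Saccharomyces cerevisiae drives amino acid synthesis genes and was named after its value was seen, was at 1.48. The homeobox factor gene1928 was the lowest of the list at -1.66. Histone rows differed by pair: gene1623 and gene1624 were at 1.34 and 1.91, and gene1886 and gene1887 at -1.91 and -1.50. Both pairs are neighbours with a common description, and the Mxr1-labelled library differed from the wild type in the same direction in each. Of 49 SAGA and chromatin rows, 3 were higher and 3 lower.

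Of 17 autophagy rows, 3 (17.6%) were higher and 0 lower, where 10.6% of all rows were higher, and the 3 were core factors. The list's median was 0.25, with 8 rows below 0. In the Mxr1-labelled library 6 of the 17 were 2-fold or more above the wild type (median 0.71). ATG8 (gene4630), which coats autophagosomes, had 16648 scaled counts in the Gal83-deletion, 21780.1 in the Mxr1-labelled, 5334 in the Gcn5-deletion and 4577 in the wild-type library. The kinase ATG1 (gene2351) was at 1.36 and ATG3 (gene3604) at 1.29. The Gcn5-deletion library was near or below the wild type for all 3. Of 26 peroxisome biogenesis rows, 4 (15.4%) were lower and 1 (3.85%) higher, against 11.0% and 10.6% of all rows. The membrane protein 11A (gene2507) was at -1.26, inheritance of peroxisomes protein 1 (gene4984) at -1.32, the targeting signal receptor (gene1871) at -1.04 and gene4527 at -1.12, of which gene1871 and gene4527 passed under 2-fold with total counts. The median of the list was -0.18. Of 71 protease rows 9 were higher and 9 lower, and of 23 proteasome rows 1 was higher and 0 lower. The proteasome list still had the highest median of the lists, 0.41, with 18 rows above 0. Its median in the Mxr1-labelled over the wild-type library was 0.51.

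Over the whole table, 119 rows (2.20%) stood apart with the Gal83-deletion library higher and 89 (1.64%) with it lower, and with total-count scaling 194 and 22. Besides those named, the higher ones included a copper amine oxidase (gene1297), with 7938 scaled counts in the Gal83-deletion library, against 949.8 to 1351 in the other 3, and histidinol phosphatase (gene736), at 8189 against 2576 to 3143. On the lower side, a cupredoxin row (gene2183) had 11756 in the Gal83-deletion library, against 54375 to 81324 in the other 3, and a methyltransferase row (gene4896) had 1349, against 5585 to 5760.0. The row with the most counts in the Gal83-deletion library was a Rossmann-fold row (gene3324), at 580397 in the Gal83-deletion and 634394 in the wild-type library, a log2 ratio of -0.13. The Hsp70 row Ssa3p (gene4104) was at -0.68, and undescribed rows gene1656 and gene5426 were at 1.15 and 1.37.

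Lower calls were most frequent among abundant rows. In the 1355 rows with the highest mean counts, 17.9% were lower and 13.1% higher. Without members of the 68-row cytosolic ribosomal protein list these shares were 14.5% and 13.7%. The 11 further ribosomal protein rows, all lower, were not taken out for this. In the 3 groups of like size with lower mean counts the lower share was between 7.23% and 9.74%. The 61 lower rows of the ribosomal protein list, without the 11 further ones, made up 10.3% of all lower rows. Of 156 miscellaneous RNA rows, which carry no description, 21 (13.5%) were higher and 33 (21.2%) lower, against 10.6% and 11.0% of all rows.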

How the data were processed

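Per the labels' protocols, ribosomal RNA was removed from total RNA with the RiboMinus kit for bacteria and NEBNext Ultra II was used for the libraries. They state neither strandedness nor molecular identifiers. Tools listed in the submitters' processing notes are featureCounts 1.6.4, Bowtie2, DESeq2, fastp 0.19.6 and bcl2fastq 2.19.0.316. The annotation and the genome build are not given in the sources used here. Deposited values are raw read counts per row, whole numbers without normalization. Names come from the table's descriptions (4648 of 5427 rows), because 0 locus tags and 0 proteins matched the reference gene table.

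Libraries were scaled by median-of-ratios factors, which were 1.047 for the Gal83-deletion and 1.497 for the wild-type library, and 0.5 was added to each count before the log. Factors for the alternatives came from edgeR 4.0.16 (R 4.3.3), and other steps used Python 3.11.15, pandas 2.3.3 and scipy 1.17.1. No strain had a replicate, so no p-value was computed. Without molecular identifiers duplicate reads count as separate, so intervals may be too narrow. On simulated counts that held counting noise alone, the steps recovered 100.0% of 200 changed rows among 5420, with 0 false calls. Of the intervals, 95.3% held the true ratio. How often rows with a true ratio close to 2-fold are called was not tested.

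Members and gene lists were chosen with earlier results of these data known. The rows named are the deleted gene and the Snf1 and methanol lists, the 15 highest and 15 lowest described rows, up to 4 called rows per list and direction, rows that stand apart and the 5 most abundant. To reach these, 6 undescribed rows at the high end and 3 at the low end were skipped. Rows named outside this rule are said to be, apart from the neighbours of the deleted gene and rows under 2-fold given to complete a list, all chosen after the values were seen. In 40 rows the counts of every library were within 5% of those of an adjacent row, so reads may be shared, and 15 of them were called.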

Additional observations from a re-analysis of the deposited data

How the results depend on the processing

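No paired analysis was possible because each strain had 1 library. With the 4-fold rule 73 rows were higher and 107 lower, and 16 and 5 stood apart. With total-count scaling, which moved the median of all rows to 0.14, 194 rows stood apart as higher and 22 as lower, and 766 and 487 were called. The other alternatives were TMM and upper-quartile factors, scaling on the Gal83-deletion and wild-type libraries only, scaling without the 20 highest rows, keeping every row, a minimum mean of 100 counts, 5 added to each count, protein-coding rows only and, added after the data were seen, leaving out rows that share counts with a neighbour. They gave between 522 and 594 higher and between 564 and 657 lower rows. No named row called here changed sign under any of these. Of 219 named rows, 3 were under 2-fold with TMM, 16 with total counts and 7 with upper-quartile factors, and 1 passed it with total counts. Total counts shifted every ratio by the same amount, so the medians of all lists moved alike. In 32 of 39 lists this shift was at least the median width of the intervals of their rows. That width depends on the counts of the rows, so the remaining lists did not resist the scaling. With total counts the medians of proteases (0.08, against -0.07) and SAGA and chromatin rows (0.04, against -0.11) had the other sign. The number of cytosolic ribosomal protein rows that stood apart as lower was 20, and 23 with TMM, 17 with upper-quartile factors and 2 with total counts. Variation between cultures was not measured.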

Other observations

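Nucleotide synthesis held 4 lower and 3 higher of 26 rows. The multifunctional pyrimidine enzyme (gene3481), which starts the pathway with carbamoyl phosphate, had 9589 scaled counts in the Gal83-deletion library, against 23460 to 28425 in the other 3. Purine nucleoside phosphorylase (gene457), a salvage enzyme, had 6480.2 in the Gal83-deletion library, against 1722 to 1926 in the other 3. Adenylosuccinate synthetase (gene4729) was at log2 1.06 and the lyase that follows it (gene2039) at -1.73.

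Of 16 alcohol and aldehyde dehydrogenase rows, 2 were higher and 2 lower. Pyruvate decarboxylase (gene4154), which makes acetaldehyde from pyruvate, had 46803 scaled counts in the Gal83-deletion and 104223 in the wild-type library, and an aldehyde dehydrogenase (gene5377) had 8917 and 26846. An alcohol dehydrogenase row (gene5423) had 14284 in the Gal83-deletion library, against 3902 in the wild type. Of 6 fatty acid beta-oxidation rows 1 was higher, an acyl-CoA synthetase (gene5033), at 1.24. Of 42 mating, meiosis and sporulation rows, 5 were higher and 3 lower, led by a row for the mating response and osmotolerance (gene684) at 1.84. Of 20 mitochondrial import rows, 2 were lower, TIM14 (gene2128) at -1.04 and a Tim13-like row (gene4787) at -1.25. Of 8 RAS-cAMP and TOR signalling rows, 0 were called (median -0.51).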
